A study of Mus musculus with 4 samples.

Results

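Tmem267, Ccl28, Nnt, Paip1, Hmgcs1 and Nim1k lie next to each other near the distal end of mouse chromosome 13, and their reads were examined in bulk RNA sequencing of the embryonic cortex. They are 6 of the 26433 genes of the deposited table and were taken by their gene names. They were proposed because Tmem267 and Ccl28 had shown more reads in cKI f/+ than in WT mice in earlier results of these same libraries. The difference between the genotypes is therefore given for these 6 genes as a description, and where the fit across all genes placed them against its threshold is stated only as a count, which tests nothing about them.

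RNA came from E15 telencephalic tissue, labelled as embryo cortex, and 4 libraries were analysed. The cKI f/+ group has 2 libraries, named KI2 and KI3. These embryos carry human SERPINA3, a secreted serine protease inhibitor, behind a loxP-flanked stop cassette and the CAG promoter in the Rosa26 locus. Nestin-Cre removes the stop in Nestin-positive cells and so also in their progeny, and whether other cells of the tissue keep the stop was not tested. The WT group has 2 libraries, named WT1 and WT3, from littermates. The founder mice were bred with B6D2F2 mice before the cross with Nestin-Cre mice of a C57BL/6 background, and the labels give the strain as C57BL/6 without a substrain. The labels do not say whether a library is 1 embryo or a pool. The reads of the human transgene were not analysed here.

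The libraries held between 17423512 and 18119444 counted reads. A count of 3, taken as the floor of detection, was worth at most 0.172 CPM (counts scaled to the library total), and counting error is all that this floor covers. Among 15786 genes with enough reads for a test, edgeR's quasi-likelihood test called 19 between the genotypes at an adjusted p under 0.05, which is 0.120% of them. Of these, 11 were higher in cKI f/+, or 0.0697% of the genes tested, and the median log2 fold change of all genes tested was 0.004. Xist numbered 13223 and 11882 reads in KI2 and KI3, against 5 in WT1 and 5 in WT3. Ddx3y of the Y chromosome had 0 reads in both cKI f/+ libraries and 364 and 393 in WT, so that genotype and the sex of the embryos cannot be told apart. The 7 markers of cortical neurons and the 7 of neural progenitors were all detected, with summed levels of 5237 to 5727 CPM and 2058 to 2189 CPM. In bulk tissue, fewer cells of a type and less RNA per cell cannot be told apart.

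The 6 genes share a place on the chromosome and not a function. Nnt encodes the transhydrogenase of the inner mitochondrial membrane, which uses the proton gradient to make NADPH for the removal of peroxides, and the common laboratory substrain C57BL/6J carries a deletion within this gene. Paip1 encodes a partner of the poly(A)-binding protein that stimulates translation initiation. Hmgcs1 encodes the cytosolic HMG-CoA synthase, an early enzyme of the mevalonate pathway to cholesterol, whose transcription is driven by SREBP-2 when sterols are low. Nim1k encodes a kinase related to AMP-activated protein kinase. Ccl28 encodes a chemokine made by mucosal epithelia, which draws lymphocytes through the receptors Ccr10 and Ccr3. Tmem267 encodes a membrane protein about which little is known.

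In the mouse build GRCm38, whose positions the table uses, the genes cover 420.4 kb of chromosome 13. From the proximal side, the order begins with Nnt (ENSMUSG00000025453) on the minus strand at chr13:119335448-119408997. Paip1 (ENSMUSG00000025451) follows on the plus strand at chr13:119428601-119458218. Tmem267 (ENSMUSG00000074634) lies on the plus strand at chr13:119488039-119611059 and is with 123.0 kb the longest of the 6 genes. Ccl28 (ENSMUSG00000074715) begins 12.8 kb beyond the end of Tmem267, also on the plus strand, at chr13:119623819-119654359. Hmgcs1 (ENSMUSG00000093930) lies on the plus strand at chr13:119690379-119708260. Nim1k (ENSMUSG00000095930) ends 1.8 kb away from Hmgcs1 on the minus strand, at chr13:119710094-119755882. Nim1k and Hmgcs1 thus converge, with their 3' ends side by side, while Nnt and Paip1 lie back to back with 19.6 kb between their 5' ends.

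The annotation of Tmem267 bears on how its reads could be counted. GENCODE M21 gives the gene 5 transcripts, and GRCm38 carries the coding sequence of Tmem267 at 2 places inside the gene, 114.0 kb apart. The transcript Tmem267-202 has its coding parts at chr13:119492635-119493015 and chr13:119495135-119495467. In Tmem267-205 they are at chr13:119606650-119607030 and chr13:119609192-119609524. The 717 coding bases with the stop codon differed at 0 positions. The first 150 coding bases of each are shown because they are the same letters at both places, with the start codon in capitals:

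Tmem267-202, chr13:119492635-119492784, plus strand: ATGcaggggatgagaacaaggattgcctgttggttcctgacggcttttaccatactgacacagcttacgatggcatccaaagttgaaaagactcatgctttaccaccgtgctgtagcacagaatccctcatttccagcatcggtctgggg

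Tmem267-205, chr13:119606650-119606799, plus strand: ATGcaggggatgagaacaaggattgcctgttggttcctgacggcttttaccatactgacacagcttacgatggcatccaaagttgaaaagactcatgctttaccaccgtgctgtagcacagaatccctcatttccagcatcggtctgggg

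A read that falls wholly within this stretch aligns equally well to both places. Of the 4682 different words of 50 bases in Tmem267 exons, 704 (15%) occurred at 2 places within the gene and 4.38% occurred in exons of other genes. In the other 5 genes, at most 0.11% of the words were repeated within the gene. For Hmgcs1, 11.6% of the words also occurred in exons of other genes. This search covered both strands, so both shares include genes that overlap Hmgcs1 or Tmem267 at the same place on the other strand. Such genes cover 12.1% of the exon bases of Hmgcs1, and 2.99% and 3.34% of those of Tmem267. The shares are therefore not a measure of sequence repeated elsewhere. How the authors treated reads with several alignments, and whether their counting used strand, is not given in the sources used here, so the Tmem267 count may leave out reads from this repeat. The repeat was read from the reference sequence, and whether the embryos of the 4 libraries carry it was not tested.

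**Figure D1:**
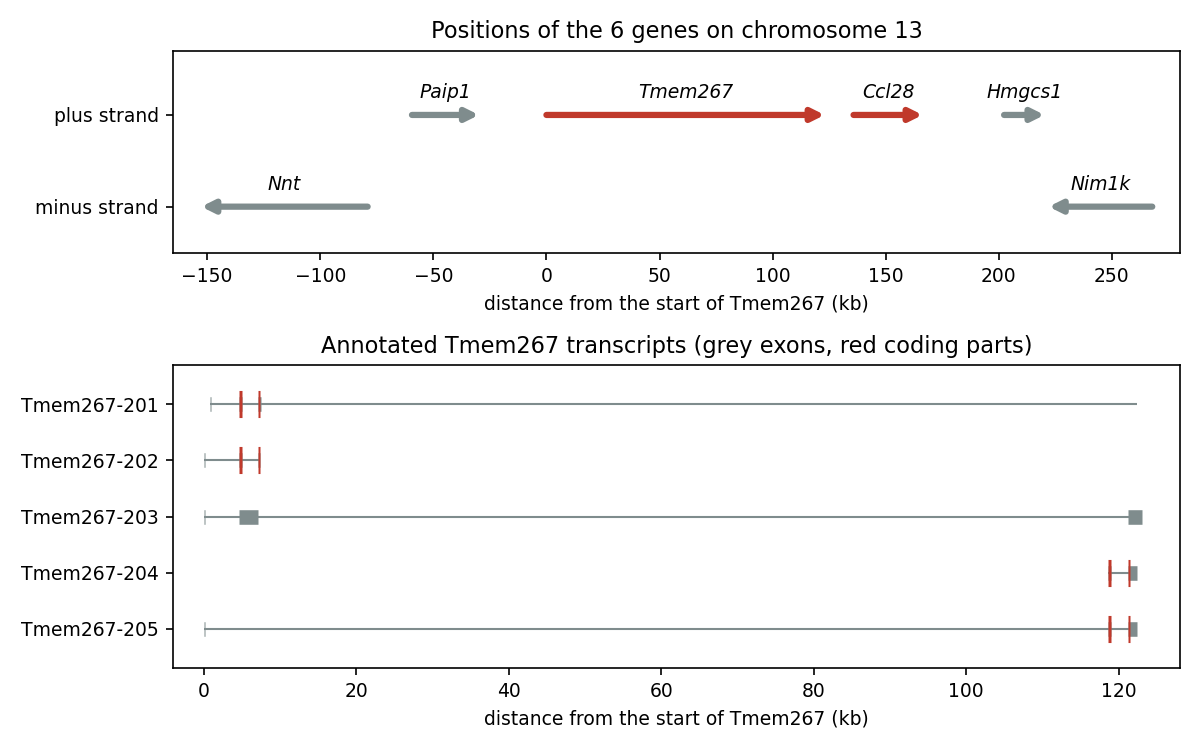
Map of the 6 genes (top, arrows point in the direction of transcription, Tmem267 and Ccl28 in red) and of the 5 annotated Tmem267 transcripts (bottom), against distance from the start of Tmem267 in kb. Grey blocks are exons and red ticks are coding parts, which stand at 2 places 114.0 kb apart.

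The bases upstream of the genes are shown for Tmem267 and Ccl28, the genes with the largest differences between genotypes, and for their abundant neighbour Hmgcs1. They come from RefSeq's promoter windows of GRCm38.p6 and run 5' to 3' to the base before the RefSeq start of the gene, except that the Tmem267 window is shown only up to the first exon in GENCODE M21. Capitals mark GC boxes (GGGCGG or CCGCCC) and CCAAT boxes (CCAAT or ATTGG), searched on both strands:

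Tmem267, chr13:119487836-119488038, plus strand: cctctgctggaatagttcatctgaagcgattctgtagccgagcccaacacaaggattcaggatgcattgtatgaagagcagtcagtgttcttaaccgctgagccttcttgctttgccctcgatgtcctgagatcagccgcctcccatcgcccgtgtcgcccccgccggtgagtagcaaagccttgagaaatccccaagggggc

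Ccl28, chr13:119623569-119623818, plus strand: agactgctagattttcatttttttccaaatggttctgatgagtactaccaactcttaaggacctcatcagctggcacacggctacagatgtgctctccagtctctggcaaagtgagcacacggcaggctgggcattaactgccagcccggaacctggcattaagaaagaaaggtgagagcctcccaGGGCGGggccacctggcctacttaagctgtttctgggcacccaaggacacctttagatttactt

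Hmgcs1, chr13:119690101-119690350, plus strand: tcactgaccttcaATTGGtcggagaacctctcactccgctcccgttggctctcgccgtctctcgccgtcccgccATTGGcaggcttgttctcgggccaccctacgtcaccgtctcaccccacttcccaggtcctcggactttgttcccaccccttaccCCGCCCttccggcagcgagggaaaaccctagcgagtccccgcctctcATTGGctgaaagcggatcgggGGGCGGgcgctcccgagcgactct

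The Ccl28 window held 1 GC box and 0 CCAAT boxes, with 50.8% G and C and 4 CpG dinucleotides. The Hmgcs1 window held 2 GC boxes and 3 CCAAT boxes, with 64.8% G and C and 23 CpG dinucleotides. The stretch shown for Tmem267 held neither motif, and the whole window of 250 bases held 1 GC box, which spans the border of the first exon. RefSeq gives Tmem267 a second window further downstream, at chr13:119488223-119488472, with 74.4% G and C and 3 GC boxes. The Nim1k window had 62% G and C with 1 CCAAT box, and the Paip1 windows 74.8% with 1 GC box and 82.8% with 4 GC boxes. Neither a TATA box (TATAAA or TTTATA) nor an E-box (CACGTG) was found in the windows of these 5 genes. Among 32851 promoter windows of 250 bases, 32.7% held a GC box, 33.8% a CCAAT box, 12.4% a TATA box and 6.02% an E-box, and the median content of G and C was 52.4%. Nnt was not matched.

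KI2 had 160 reads of Tmem267 and KI3 130, against 41 in WT1 and 52 in WT3. Scaled to library size these were 9.02, 7.17, 2.33 and 2.98 CPM. Both cKI f/+ libraries thus lay above both WT libraries, and the lower cKI f/+ value was more than 2 times the higher WT value. The mean was 8.10 ± 1.31 CPM in cKI f/+ and 2.66 ± 0.465 CPM in WT (SD, n = 2 each). The ratio of the summed reads, each scaled to the group's total, was 3.05, with a 95% interval from counting error of 2.40 to 3.89 (exact conditional binomial). In the fit across all genes the log2 fold change was 1.61 (standard error 0.23), which ranked 36 from the highest among the 15786 genes tested.

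Ccl28 had 54 reads in KI2 and 24 in KI3, against 0 in WT1 and 2 in WT3. The levels were 3.04 and 1.32 CPM in cKI f/+, and 0 and 0.115 CPM in WT. The groups did not overlap, but both WT values were at or below the floor of 3 reads, and the KI2 value was more than 2 times the KI3 value. The mean was 2.18 ± 1.22 CPM in cKI f/+ and 0.0574 ± 0.0812 CPM in WT (SD, n = 2 each). The 78 reads against 2 gave a ratio of 38.1, with a 95% counting interval of 10.2 to 320. The fitted log2 fold change of 5.10 (standard error 0.83) depends on the small count added by the model, and ranked 6 from the highest among the genes tested. It was 4.37 without KI2, 5.58 without KI3, 4.17 without WT1 and 8.29 without WT3. Ccl28 passed the filter on low counts only through the cKI f/+ libraries.

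Nnt had 12 and 10 reads in KI2 and KI3 and 8 and 7 in WT1 and WT3, or 0.677, 0.552, 0.454 and 0.402 CPM. The cKI f/+ libraries were above the WT libraries, by 2 reads between the nearest pair. The ratio of 1.43 had a 95% counting interval of 0.711 to 2.97, so a difference between the groups was not detectable at this depth. Nnt did not pass the filter and has no fitted value. GENCODE M21 also gives a second gene of the same name, ENSMUSG00000116207, which covers 47.4% of the exon bases of Nnt on the same strand and is not among the genes of the table analysed here. Whether the authors' counting used that gene is not known, so the Nnt count may leave out reads from the shared bases.

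The 3 other genes showed overlapping groups. Hmgcs1 had 3714 and 4019 reads in KI2 and KI3, and 3670 and 4102 in WT1 and WT3. Its levels were 209, 222, 208 and 235 CPM, and the fitted log2 fold change was -0.04 (standard error 0.09). Both WT libraries bracketed both cKI f/+ libraries. Paip1 had 2013, 2135, 2071 and 2259 reads, which were 113, 118, 118 and 130 CPM in KI2, KI3, WT1 and WT3. Its log2 fold change was -0.09 (standard error 0.08), and KI2 had the lowest and WT3 the highest level. Nim1k had 276, 242, 250 and 239 reads, or 15.6, 13.4, 14.2 and 13.7 CPM, with a log2 fold change of 0.06 (standard error 0.14). KI2 had the highest and KI3 the lowest level of Nim1k.

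In all, 5 of the 6 genes passed the filter and 1 of them, Tmem267, lay past the threshold of the fit, on the side of cKI f/+, where 0.120% of all genes tested were called in either direction. Both cKI f/+ libraries were above both WT libraries for 3 of the 6 genes, against 13.1% of all genes of the table. Groups that did not overlap in either direction made up 33.9% of the genes tested. Since the genes were chosen on this contrast in these libraries, these counts restate the choice and nothing is read from them. The number of the 6 genes past the threshold was 2 with DESeq2, which called 0.162% of its genes, and 2 with edgeR's likelihood ratio test, which called 0.342%. It was 0 with all genes of at least 1 count kept (0.0605% called), with a floor of 10 counts per library (0.0409%) and without chromosomes X and Y (0.0722%). With 1 library left out it was 1 without KI2 (0.318%), and 2 without KI3 (0.282%), WT1 (0.301%) or WT3 (0.436%). Tmem267 was the gene inside the threshold of the call and Ccl28 the next of the 6 outside it, although the fitted log2 fold change of Ccl28 was the larger.

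**Figure D2:**
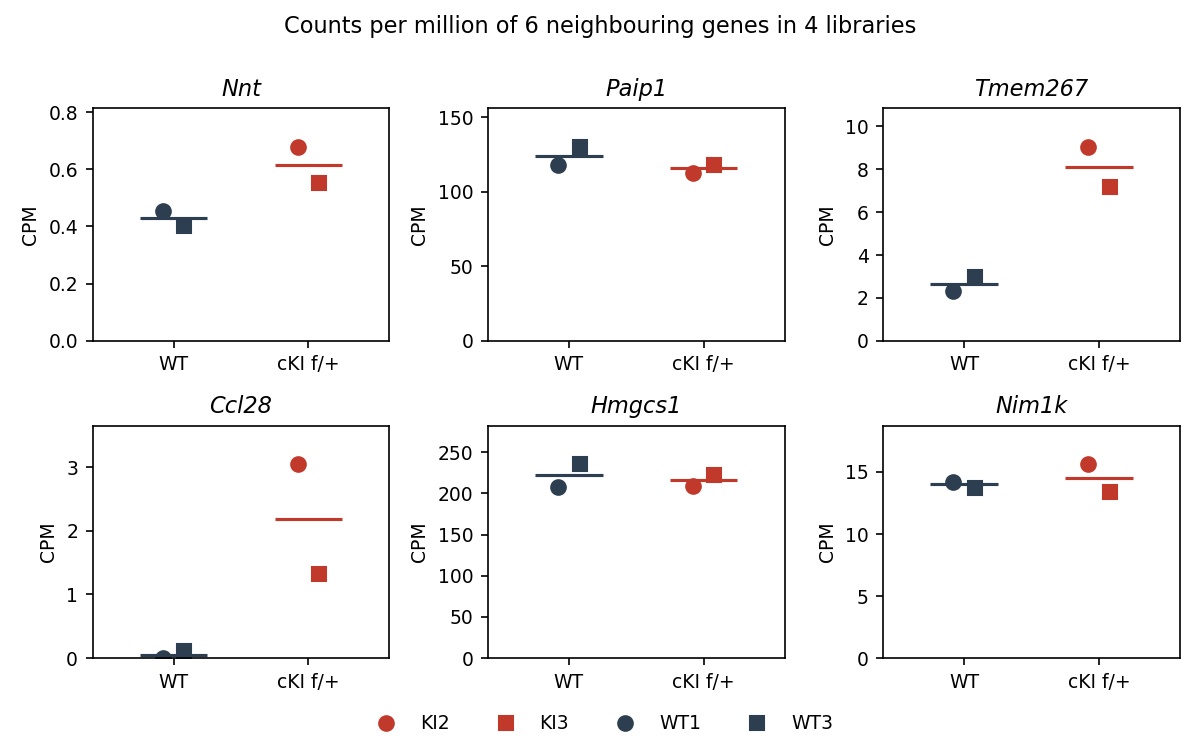
Level in CPM of each of the 6 genes in the 4 libraries (points, red cKI f/+, dark WT; horizontal lines are group means), with an axis from 0 in each panel. Tmem267 lay at 7.17 and 9.02 CPM in cKI f/+ and at 2.33 and 2.98 CPM in WT, and Ccl28 was near 0 in WT, while the groups overlapped for Paip1, Hmgcs1 and Nim1k.

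Levels of different genes were compared per kb of their merged exons. Hmgcs1 had the highest level, 47.6 ± 2.76 CPM per kb (SD over the 4 libraries), above the levels of 95.9% of 26378 genes. Paip1 followed with 34.6 ± 2.02 CPM per kb, and its highest library, 37.5, was under the lowest Hmgcs1 library, 45.4. Nim1k had 1.68 ± 0.114 CPM per kb, Tmem267 0.992 ± 0.598, Ccl28 0.231 ± 0.292 and Nnt 0.0741 ± 0.0172. Paip1 and Nim1k did not overlap, whereas each of the lower neighbours in this order overlapped with the next one over the 4 libraries. Within each single library, however, Nim1k was above Tmem267 and Tmem267 above Ccl28. Tmem267 reached 1.66 CPM per kb in KI2, where the lowest Nim1k library had 1.58. Ccl28 reached 0.629 CPM per kb in KI2, above the 0.430 and 0.551 of Tmem267 in the WT libraries. In the WT libraries, Ccl28 (0 and 0.0237 CPM per kb) was below Nnt (0.0645 and 0.0571), and in the cKI f/+ libraries (0.629 and 0.273) above it (0.0961 and 0.0784). The Nnt levels may be too low, since the count may leave out reads from bases shared with the second Nnt gene.

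**Figure D3:**
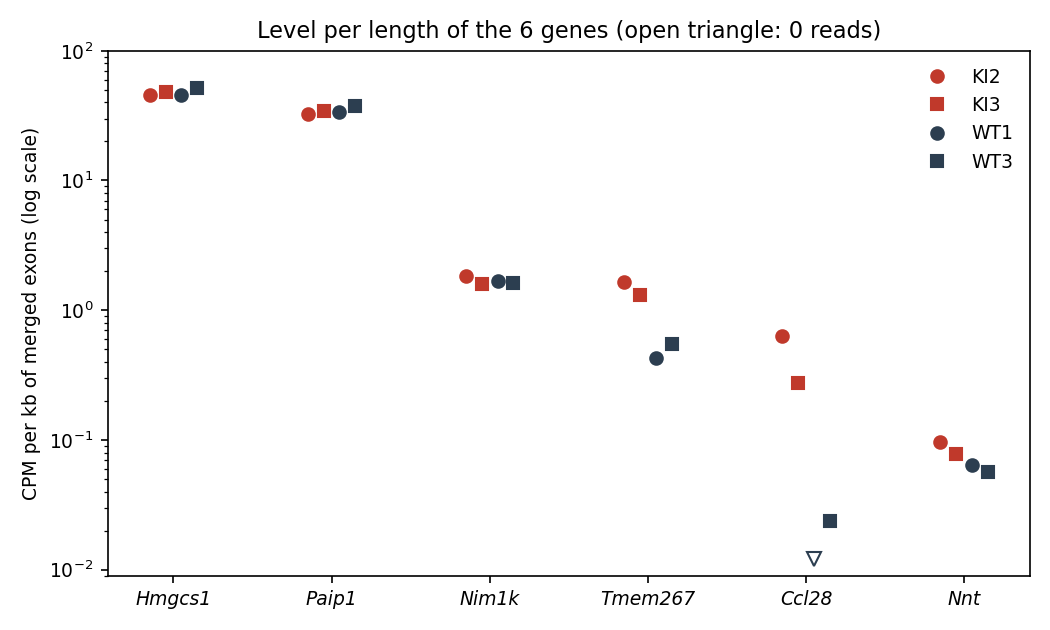
Level of the 6 genes in CPM per kb of merged exons, on a log axis, in the 4 libraries (red cKI f/+, dark WT); the open triangle marks the WT1 library with 0 Ccl28 reads, which has no place on a log axis. Hmgcs1 and Paip1 stood above the other genes, and the spread over libraries was widest for Ccl28.

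The reads of all 6 genes together came to 351 and 362 CPM in cKI f/+ and to 343 and 382 CPM in WT, so the sums of the groups overlapped. Hmgcs1 supplied 59.6% to 61.6% of them and Paip1 32.3% to 34.3%. Tmem267 supplied 2.57% and 1.98% in cKI f/+ and 0.679% and 0.781% in WT. The difference in Tmem267 and Ccl28 is therefore not visible in the sum over the neighbourhood.

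Whether genes around the 6 also differed was tested, since these genes were not chosen on the contrast. Within 1 Mb the table has 17 other genes, of which 6 had enough reads. Of these 6, 0 were called by edgeR's quasi-likelihood test, by DESeq2 or by edgeR's likelihood ratio test, and 0 had an unadjusted p under 0.05. Their log2 fold changes ran from -0.09 to 0.22 with a median of 0.05, beside 0.004 over all genes tested, and the smallest adjusted p of edgeR's quasi-likelihood test was 0.978. The gene 4833420G17Rik lies between Paip1 and Tmem267, at chr13:119462768-119486120 on the same strand as Tmem267. It had 891 and 878 reads in cKI f/+ and 933 and 828 in WT, with a log2 fold change of -0.02 (standard error 0.09). Gm9752 overlaps it on the minus strand and had 56 and 44 reads against 36 and 48, a log2 fold change of 0.22 (standard error 0.29). Zfp131, a zinc finger gene beyond Nim1k, had 1026 and 1060 reads in cKI f/+ and 1076 and 1106 in WT, with a log2 fold change of -0.09 (standard error 0.08). AC123738.1, annotated as an antisense RNA, had 21 and 13 reads against 21 and 10 (0.11, standard error 0.49). On the proximal side, Fgf10, a growth factor of the FGF family, had 13 and 10 reads against 10 and 10 (0.17, standard error 0.48). Mrps30, a protein of the mitochondrial ribosome, had 331 and 334 reads against 314 and 340, with a standard error of 0.12 around a log2 fold change of -0.00. The genes on both sides of Tmem267 and Ccl28 thus had fitted changes within about 1 standard error of 0.

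Within 5 Mb, 16 of 33 other genes had enough reads, and 0 were called by any of the same 3 tests, with 0 at an unadjusted p under 0.05. At the same shares over all genes, 16 genes would also mostly give 0 calls, and nothing is read from this. Their log2 fold changes had a median of 0.05, and the smallest adjusted p was 0.969 (edgeR's quasi-likelihood test). The largest sizes were those of Isl1, a transcription factor of motor and striatal neurons, at -0.81 (standard error 0.79), and of Pelo, a ribosome rescue factor, at 0.65 (standard error 0.42). Isl1 had 1 read in KI2 and 30 in KI3, against 21 and 32 in WT, so its fitted value follows the KI2 library. Pelo had 21 and 19 reads in cKI f/+ and 10 and 15 in WT. Both cKI f/+ libraries were above both WT libraries for 3 of the 16 genes, where 16.0% of all genes tested had this order.

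**Figure D4:**
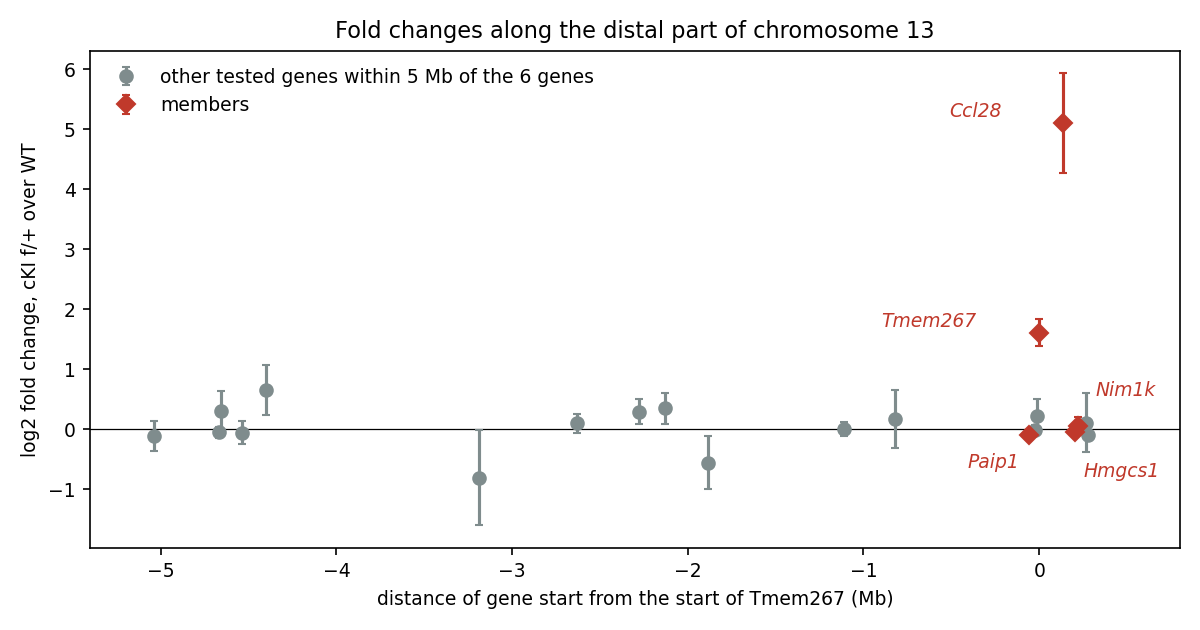
Fitted log2 fold change of cKI f/+ over WT, with its standard error as bars, against the distance of each gene's start from the start of Tmem267 in Mb, for the 5 tested genes of the neighbourhood (red) and 16 other tested genes within 5 Mb of the 6 genes (grey). The other genes had values between -0.81 and 0.65, and Tmem267 (1.61) and Ccl28 (5.10) were chosen for theirs.

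Genes that overlap the 6 on the other strand were checked for their own reads. The gene 3110070M22Rik overlaps the first exons of Tmem267 on the minus strand over 2.99% of its exon bases, and had 9 and 6 reads in cKI f/+ and 9 and 6 in WT. AC241593.2 overlaps the end of Tmem267 over 3.34% of its exon bases and had 1 read, in KI2. AC123738.2 overlaps Hmgcs1 over 12.1% of its exon bases and had 3, 0, 1 and 1 reads. These overlapping genes had few reads beside those of Tmem267 and Hmgcs1, and without strand such reads cannot be told apart.

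The other genes of the pathways to which the 6 belong were taken from lists. Over all genes, edgeR's quasi-likelihood test called 0.120%, DESeq2 0.162% of its genes and the likelihood ratio test 0.342%. An unadjusted p under 0.05 was found for 726 of the 15786 genes tested. For this list and each list after it, such shares would mostly give 0 calls, so nothing about a pathway is read from the counts. Of 23 further genes of cholesterol synthesis and its control, 23 were tested and 0 were called in either direction, by edgeR's quasi-likelihood test, DESeq2 or the likelihood ratio test, and 1 had an unadjusted p under 0.05. Their median log2 fold change was 0.01. Idi1, the isopentenyl diphosphate isomerase, had 400 and 436 reads in cKI f/+ and 457 and 450 in WT, a log2 fold change of -0.15 (standard error 0.11). Its level was lower in both cKI f/+ libraries than in both WT libraries, whereas the groups overlapped for Hmgcs1 at -0.04.

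Of 16 genes that make mitochondrial NADPH or use it against peroxides, as Nnt does, 15 were tested. In the same 3 tests 0 were called, 1 had an unadjusted p under 0.05, and the median log2 fold change was -0.02. Nadk2, the mitochondrial NAD kinase, had 384 and 418 reads in cKI f/+ and 452 and 493 in WT (log2 fold change -0.27, standard error 0.11, adjusted p = 0.969, edgeR). Txnrd2, the mitochondrial thioredoxin reductase, had 170 and 187 reads against 179 and 225 (-0.21, standard error 0.17). The list thus gave fitted values between -0.27 and 0.16, while Nnt itself had too few reads for one.

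The 18 AMPK-related kinases and activators beside Nim1k were all tested, 0 were called by the 3 tests and 0 had an unadjusted p under 0.05. Their median log2 fold change was -0.02. The largest sizes were those of the catalytic AMPK subunits. Prkaa2 had 335 and 305 reads in cKI f/+ and 356 and 340 in WT (-0.15, standard error 0.12). Prkaa1 had 388 and 372 reads against 407 and 418 (-0.15, standard error 0.11). Nim1k lay within the range of this list, which ran from -0.15 to 0.12.

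Of 16 genes of poly(A) binding and translation initiation, which work with Paip1, 16 were tested, 0 were called by the 3 tests and 0 had an unadjusted p under 0.05. Their median log2 fold change was 0.03. Eif4a2, an RNA helicase of the initiation complex, had 7107 and 6379 reads in cKI f/+ and 6885 and 7803 in WT (-0.15, standard error 0.10). Eif4g2, a scaffold protein of initiation, had 23738 and 23705 reads against 24851 and 24937 (-0.10, standard error 0.07). The value of Paip1, -0.09, lay within the range of -0.15 to 0.10 of its list.

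Of 12 chemokines and receptors, 8 were tested, 0 were called by the 3 tests and 1 had an unadjusted p under 0.05, with a median log2 fold change of 0.02. Ccr10, a receptor of Ccl28, had 5, 3, 6 and 1 reads in KI2, KI3, WT1 and WT3 and was not tested, and Ccr3 was not analysed here. Ccl27a, the other ligand of Ccr10, had 1110 and 1007 reads in cKI f/+ and 993 and 1044 in WT (0.03, standard error 0.10), so its groups overlapped. The largest sizes were those of Cx3cr1, the fractalkine receptor of microglia, at -0.60 (standard error 0.20, adjusted p = 0.969, edgeR), and of Cxcl14, a chemokine, at 0.24 (standard error 0.36). Cx3cr1 had 73 and 95 reads in cKI f/+ and 119 and 131 in WT. The list's values ran from -0.60 to 0.24, and no comparison with Ccl28 is made, since Ccl28 was chosen for its difference.

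**Figure D5:**
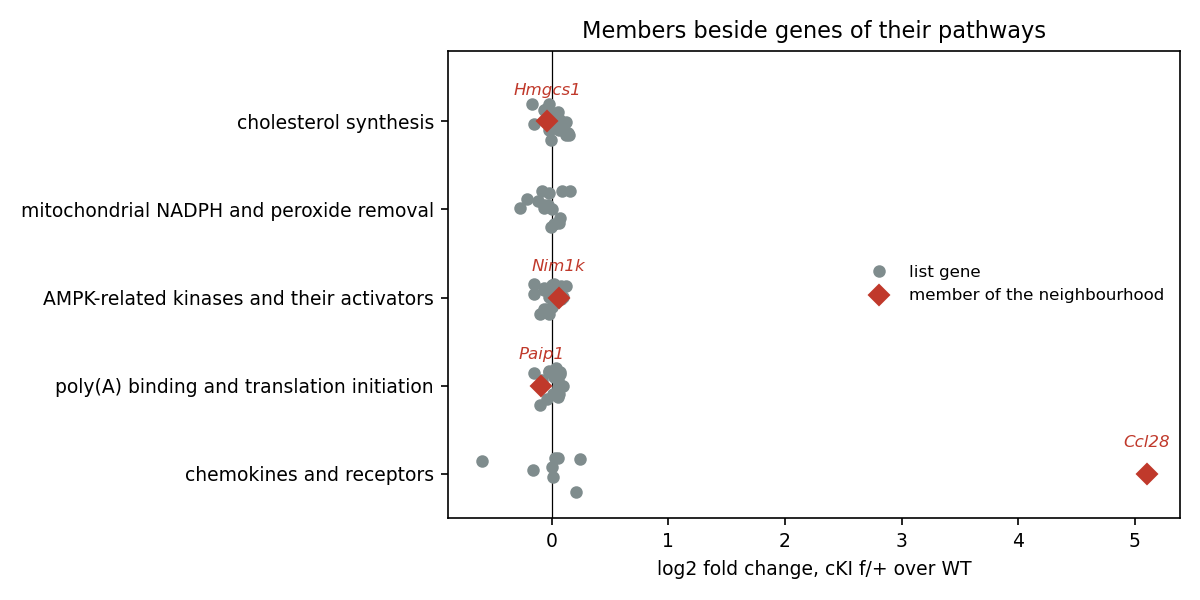
Fitted log2 fold change of cKI f/+ over WT for the tested genes of 5 pathway lists (grey) and for the tested gene of the neighbourhood that belongs to each (red); Nnt, which belongs to the list of mitochondrial NADPH, had too few reads for a fit. Hmgcs1, Nim1k and Paip1 lay among the genes of their lists, and Ccl28, which was chosen for its difference, is drawn at 5.10.

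Some markers of cell types that could have come with the dissected tissue also differed between the genotypes, while others had overlapping groups or went the other way. Choroid plexus markers were higher in both cKI f/+ libraries for 2 of 4 genes, where 13.1% of all genes of the table had this order, and their summed level was 8.01 and 60.4 CPM in cKI f/+ and 0.454 and 1.78 CPM in WT. Ttr, the transthyretin of this epithelium, had 116 reads in KI2 and 956 in KI3, against 0 and 4 in WT. Kl, another choroid plexus marker, had 2, 0, 0 and 1 reads. Of the 3 choroid plexus markers tested, 2 had an unadjusted p under 0.05, beside 726 of the 15786 genes tested. The likelihood ratio test called 1 of them, beside 54 of all genes, while edgeR's quasi-likelihood test and DESeq2 called 0.

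Meningeal markers were higher in both cKI f/+ libraries for 3 of 4 genes, beside the same 13.1% of all genes, with a summed level of 18.3 and 15.5 CPM in cKI f/+ and 9.37 and 8.90 CPM in WT. Col1a1, a fibrillar collagen of fibroblasts, had 82 and 64 reads in cKI f/+ and 10 and 28 in WT. Foxc1, a transcription factor of the meninges, had 26 and 38 reads against 53 and 35, so its groups overlapped. Of the 4 meningeal markers, 3 had an unadjusted p under 0.05, beside 726 of the 15786 genes tested. The likelihood ratio test called 2 of them, beside 54 of all genes, while edgeR's quasi-likelihood test and DESeq2 called 0. Markers of mucosal and other epithelia, the best known source of Ccl28, were higher for 2 of 4 genes, Krt18 and Cdh1, at a few reads each and beside 13.1% of all genes, with sums of 1.35 and 2.21 CPM against 0.908 and 0.976 CPM. Among them, Epcam had 14 and 13 reads in cKI f/+ and 15 in each WT library, Cdh1 had 9 and 10 against 0 and 2, Krt8 had 0 and 13 against 1 and 0, and Krt18 had 1 and 4 against 0 and 0.

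Summed microglial markers were lower in cKI f/+ (20.5 and 22.5 CPM) than in WT (27.5 and 26.5 CPM), and so were those of neurons (5498 and 5237 against 5641 and 5727 CPM). Singly, 4 of 4 microglial and 3 of 7 neuron markers were lower in both cKI f/+ libraries, beside 2835 of the 15786 genes tested. An unadjusted p under 0.05 was found for 1 microglial and 0 neuron markers, beside 726 of all genes. Of either list, 0 were called by edgeR's quasi-likelihood test, DESeq2 or the likelihood ratio test. The sums of progenitor, endothelial and blood markers overlapped, at 2058 to 2189 CPM, 48.7 to 55.2 CPM and 283 to 455 CPM. Of the 5 blood markers, however, 4 were lower in both cKI f/+ libraries, as were 2835 of the 15786 genes tested. The log2 fold changes of these 4 were -0.61 (Hba-a2), -0.57 (Alas2), -0.49 (Hbb-bt) and -0.37 (Hbb-bs). An unadjusted p under 0.05 (edgeR's quasi-likelihood test) was found for 3 of the 5, beside 726 of all genes tested. Of the 5 blood markers, 0 were called by edgeR's quasi-likelihood test, DESeq2 or the likelihood ratio test. The part of these tissue differences in the values of Tmem267 and Ccl28 was not tested.

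The genes whose levels over the 4 libraries were most like those of each gene were found by the Euclidean distance of log2 CPM, centred on each gene's mean, among 15785 other tested genes. For Tmem267 they were Tcam1 (distance 0.31) on chromosome 11 and Gm14292 (0.36) on chromosome 2. Tcam1 had 13 and 13 reads in cKI f/+ and 3 and 5 in WT, and Gm14292 had 97 and 112 against 30 and 39. Unlike Tmem267, neither had its highest count in KI2 alone. For Ccl28 they were Gm13443 (2.18), Gm9825 (2.77) and Gm17518 (2.93), at larger distances. Gm13443 had 101 and 108 reads against 3 and 2, so that its cKI f/+ libraries were close to each other where those of Ccl28 were not. Gm17518 had 18 and 12 reads against 1 and 0, and Gm9825 had 965 and 977 against 10 and 7. For Paip1 the closest were Hars, Rnf170 and E130307A14Rik, for Hmgcs1 they were Tsfm, Zdhhc21 and Tmed2, and for Nim1k they were Chid1, Mrps36 and Ppfia4, all at distances of at most 0.02. With 4 libraries, genes whose groups overlap have many close matches, and these lists are a description only.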

How the data were processed

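Total RNA of E15 telencephalic tissue was extracted with TRIzol and sequenced on an Illumina HiSeq instrument. For each of 4 libraries the authors deposited raw counts of reads per gene, without normalization. The submitters' processing notes name Bowtie2 2.2.3, TopHat2 2.0.12, HTSeq 0.6.0 and the build mm9 without their roles, whereas the positions in the table are those of GRCm38: 26378 of 26433 identifiers are in GENCODE M21 and 24485 of them have the same position. The same table holds the authors' own comparison, and its columns of signal (the mean normalized count), fold or ratio, log2 fold, p-value and adjusted p by the authors were not used. The column names give the genotype but match no single labelled sample. The labels describe triplicates, and 2 libraries per group were analysed here. The chi-square of counts per degree of freedom between libraries of a group was 5.63 for cKI f/+ and 7.49 for WT, so they were not copies. Nothing states that they came from separate embryos, so p-values measure only the spread between these libraries, which may be technical.

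With R 4.3.3, edgeR 4.0.16 kept 15786 genes by its expression filter, normalized them by TMM (factors 0.995 to 1.003) and tested them by quasi-likelihood with Benjamini-Hochberg adjustment. The call was an adjusted p under 0.05, and the biological coefficient of variation was 8.72%. The standard errors printed are the size of the log2 fold change divided by the square root of the test's F statistic. They are therefore another form of that statistic. The smallest p of a two-sided exact permutation test of 2 against 2 libraries is 0.333. CPM are counts scaled to the library total, and levels per length divide them by the kb of merged exons in GENCODE M21. Likeness used log2 CPM with a prior count of 0.5. Words of 50 bases were counted over the exons of GENCODE M21 on GRCm38. The test was run on simulated counts first. The fit was repeated with DESeq2 1.42.0, with the likelihood ratio test of edgeR, with 3 other scalings and 2 other filters, with genes of X and Y removed, and with 1 library left out at a time.

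The genes, the lists and the alternatives were chosen with earlier results of these data known. The genes named are the 6 genes, every tested gene within 1 Mb, the called genes or else the 2 of largest log2 fold change within 5 Mb and in each list, and the 3 genes most like each tested one. Ccl27a, Ccr10 and the single marker genes, overlapping genes and sex-linked genes fall outside this rule and were added once their values had been seen. A few results for single genes that the rule names are not reported here.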

Additional observations from a re-analysis of the deposited data

How the results depend on the processing

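Tmem267 and Ccl28 were chosen on this contrast in these libraries, so their side of the threshold is listed only to show what the settings do and supports nothing about them. The log2 fold change of Tmem267 was 1.61 to 1.62 under 8 alternatives, and 1.61, no longer past the threshold, with every gene of at least 1 count kept, with a floor of 10 counts per library, and without chromosomes X and Y. It stayed past the threshold under the other 5. Ccl28 came past the threshold with DESeq2 (5.26) and with edgeR's likelihood ratio test (5.10), and has no value with the floor of 10 counts. The number of the 6 genes called was 1, and became 2 with DESeq2 and with the likelihood ratio test, and 0 with all genes of at least 1 count, with the floor of 10 counts and without X and Y. Over all genes, 19 calls became 54 with the likelihood ratio test, 6 with the floor of 10 counts and 11 without X and Y. The cause was not tested. The 8 alternatives kept the values of Paip1 (-0.10 to -0.08), Hmgcs1 (-0.04 to -0.03) and Nim1k (0.05 to 0.06) near 0, and Nnt, fitted under 2, had 0.51 and 0.53. Calls within 1 Mb and within 5 Mb stayed at 0 under every alternative, where so few of all genes were called that 0 was the likely count.

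Leaving out 1 library leaves an arm with a lone library that is assumed to vary like the other group. Tmem267 then had 1.42 to 1.80. Ccl28 had 4.17 to 8.29 and came past the threshold without KI3 (5.58), WT1 (4.17) or WT3 (8.29), but not without KI2 (4.37), so 1 or 2 of the 6 genes were called. Paip1 had -0.16 to -0.02, Hmgcs1 -0.12 to 0.06, turning to 0.06 without WT3, Nim1k -0.07 to 0.16, turning to -0.07 without KI2, and Nnt, not fitted without KI2, 0.44 to 0.66. Between 46 and 71 genes were called in all, with 52 without KI2, 46 without KI3, 49 without WT1 and 71 without WT3, and 0 to 0 within 1 Mb or 5 Mb. No paired analysis was possible because neither the labels nor the column names pair a cKI f/+ library with a WT library. Depth limits Nnt and the WT level of Ccl28, and the Nnt count may also lack reads shared with the second Nnt gene.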
